A study of Mus musculus with 120 samples.

Results

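The 7 genes Th, Dbh, Slc6a2, Slc18a2, Ddc, Gch1 and Phox2a, which together mark the neurons that make and release noradrenaline, were followed through 120 RNA-seq libraries of mouse brain. They were chosen by symbol as known genes of these neurons, with earlier results of these data known. All 7 were matched among the 55573 genes of the deposited count tables. All mice were C57BL/6J. They model spinocerebellar ataxia type 1, a hereditary disease in which the CAG repeat of Atxn1 is expanded, so that ataxin-1 carries a long glutamine tract. WT mice were compared with 175Q mice, which carry 1 expanded knock-in allele (Atxn1 175Q/2Q), and with 175QK772T mice, in which the same allele holds, besides, K772T, an alteration of the sequence that sends ataxin-1 to the nucleus. The expansion sits in the mouse's own Atxn1 gene, so it is not confined to a cell type, and no agent was given to any group. There were 4 mice of each genotype at 10 weeks of age and 4 different ones at 26 weeks, with 5 regions from every mouse. Brainstem was taken at 10 weeks and medulla at 26 weeks, and cerebellum, cortex, hippocampus and striatum at both ages. The comparison of the 2 mutants asks which changes depend on that sequence. The descriptions of 40 libraries at 26 weeks name another repeat length, while their genotype field reads 175Q or 175QK772T, and the genotype field was used here.

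Noradrenergic neurons lie in small groups in the pons, above all the locus coeruleus, and in the medulla, and send axons to nearly the whole brain. Tyrosine hydroxylase (Th) makes L-DOPA from tyrosine, aromatic amino acid decarboxylase (Ddc) turns it into dopamine, the vesicular transporter VMAT2 (Slc18a2) loads dopamine into vesicles, and dopamine beta-hydroxylase (Dbh) converts it there into noradrenaline. The noradrenaline transporter (Slc6a2) takes released noradrenaline back up, GTP cyclohydrolase (Gch1) starts the synthesis of tetrahydrobiopterin, the cofactor of Th, and Phox2a is a homeodomain transcription factor needed for these neurons to form. Dbh and Slc6a2 are the most selective of the 7, whereas Ddc, Slc18a2 and Gch1 also serve serotonin neurons, and Th and Ddc are found in further cells.

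Promoter sequences are shown because several members moved together below. RefSeq gave promoters (GRCm38.p6) for 6 of the 7 members, all but Slc6a2. In the 250 bases before the start of transcription, the core letters of homeodomain sites (ATTA on either strand, read as TAAT on the other) and the cAMP response element (TGACGTCA, its own reverse complement) were searched. Capitals mark the matches in the windows of Th (chr7:142899996-142900245, minus strand) and Slc18a2 (chr19:59260628-59260877, plus strand), printed 5′ to 3′. The Th window lies before the RefSeq start but inside the span of the authors' gene model (chr7:142892752-142931128). For Dbh, whose window lies within the first exon of the authors' gene model, the 30 bases around a pair of matches are given (chr2:27165341-27165370, plus strand).
Th: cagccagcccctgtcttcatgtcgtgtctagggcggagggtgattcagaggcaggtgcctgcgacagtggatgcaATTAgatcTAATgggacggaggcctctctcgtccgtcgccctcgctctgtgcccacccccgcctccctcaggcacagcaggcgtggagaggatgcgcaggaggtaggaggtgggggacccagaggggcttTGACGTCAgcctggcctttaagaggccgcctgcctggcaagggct
Slc18a2: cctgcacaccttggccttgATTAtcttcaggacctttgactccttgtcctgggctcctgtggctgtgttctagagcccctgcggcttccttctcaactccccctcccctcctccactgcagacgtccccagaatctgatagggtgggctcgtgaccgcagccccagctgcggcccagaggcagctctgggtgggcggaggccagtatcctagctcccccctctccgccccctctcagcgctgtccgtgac
Dbh: ccatgtgtcATTAgtgccaATTAggggaga
The Th window held 2 ATTA matches and 1 TGACGTCA, whose first base lay 45 bases before the start. The Dbh window held 3 ATTA matches, and that of Slc18a2 held 1. The 2 Ddc promoters held 3 and 2, of which a pair in the former overlap, and no match was found in those of Gch1 and Phox2a. Among all 32851 promoters, 54.9% held ATTA and 1.55% held TGACGTCA in a window of this length, so ATTA alone is common, and a match describes letters, not a bound site.

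Libraries held 68.2 to 104 M counted read pairs at 10 weeks and 28 to 57.3 M at 26 weeks. Levels are given in CPM, counts divided by library size, scaled within each set of region and age. Differences are log2 fold changes ± standard error from edgeR's quasi-likelihood fit with terms for genotype and sex (4 mice each). A gene counts as called where its p, adjusted by Benjamini and Hochberg over every gene of that set, is below 0.05. The 3 contrasts of a set share their groups. Where genes with an unadjusted p below 0.05 or without overlap are counted, the share over all genes was not computed. Atxn1 stood at 34.2 ± 0.292 CPM (SD, n = 4) in WT brainstem, 42.8 ± 1.42 in 175Q and 43.6 ± 1.32 in 175QK772T. In the medulla the same means were 42.3, 55.2 and 53.7 CPM, and Atxn1 was called higher in each mutant in both regions. Counts per gene do not tell the expanded from the normal allele. The content of the dissected pieces varied: Ttr, the main transcript of choroid plexus, ran from 8.32 to 4820 CPM over the 12 brainstem libraries and from 11.3 to 3511 over the 12 medulla libraries. Tph2, which makes serotonin in the raphe nuclei, ran from 7.57 to 56.9 CPM and from 10.5 to 33.4. The library labelled cortex WT replicate 1 at 26 weeks correlated better with medulla (r of 0.954 to 0.976 with each of 12 libraries, over 10991 genes) than with the other 11 cortex libraries (0.912 to 0.933), and values that rest on it are given with and without it.

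In the brainstem of 10-week 175Q mice, 4 of the 7 genes fell and none rose, against 1.87% of all 21130 genes tested that were called lower. The noradrenaline transporter fell most, followed by Dbh, and then by Th and Slc18a2. The log2 fold changes of the 7 had a median of -1.08, where the median of all genes was 0.00. Ddc, Gch1 and Phox2a did not pass the test. In bulk tissue, fewer noradrenergic cells, less RNA per cell and a dissected piece that holds less of their tissue cannot be told apart.

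Slc6a2 was at 58, 26.3, 17.6 and 35.1 CPM in the WT mice and at 8.13, 3.80, 4.16 and 1.73 CPM in the 175Q mice. Every 175Q value lay below the lowest WT value, and the WT mean was 7.96-fold the 175Q mean in the fit (-2.99 ± 0.38, adjusted p = 0.00119). Dbh, the enzyme of the last step, was at 38.9, 21.1, 14.5 and 24.9 CPM in WT and at 8.59, 6.27, 6.96 and 4.19 CPM in 175Q. The groups did not overlap, and the 175Q mean was 26.1% of the WT mean (-1.94 ± 0.25, adjusted p = 0.00164). For Th the WT values were 20.4, 12.6, 9.93 and 15 CPM and the 175Q values 8.49, 6.52, 6.70 and 5.58 CPM. These did not overlap either, but the gap between the groups was narrow, and the fold was smaller (-1.09 ± 0.19, adjusted p = 0.00874). Slc18a2 was at 69.2, 25.4, 38 and 39.5 CPM in WT and at 15, 21, 22.1 and 20.7 CPM in 175Q (-1.08 ± 0.22, adjusted p = 0.0216). The call for Slc18a2 was lost without WT replicate 4 (adjusted p = 0.0599), without 175Q replicate 1 (0.0709) or without 175Q replicate 2 (0.0873), whereas Slc6a2, Dbh and Th kept theirs with each of the 8 libraries left out in turn, the highest adjusted p being 0.0415 for Th.

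The 3 members that did not pass had values that overlapped between the genotypes. Ddc was at 46.1, 23.1, 30.9 and 29.3 CPM in WT and at 20.4, 27.8, 28.4 and 27.9 CPM in 175Q (-0.29 ± 0.17, adjusted p = 0.422, 95% interval -0.69 to 0.11). A single WT library stood above the rest. Gch1 was at 3.62 to 7.43 CPM in WT and 3.62 to 5.25 CPM in 175Q (-0.20 ± 0.17, adjusted p = 0.597, interval -0.59 to 0.19). Phox2a was low in all libraries, at 0.806 to 1.75 CPM in WT and 0.596 to 0.869 CPM in 175Q (-0.58 ± 0.23, adjusted p = 0.213). The exons of Phox2a overlap Inppl1 and those of Slc18a2 overlap Gm29261, on the opposite strand in both cases, while the 10-week counts used strand.

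**Figure D1:**
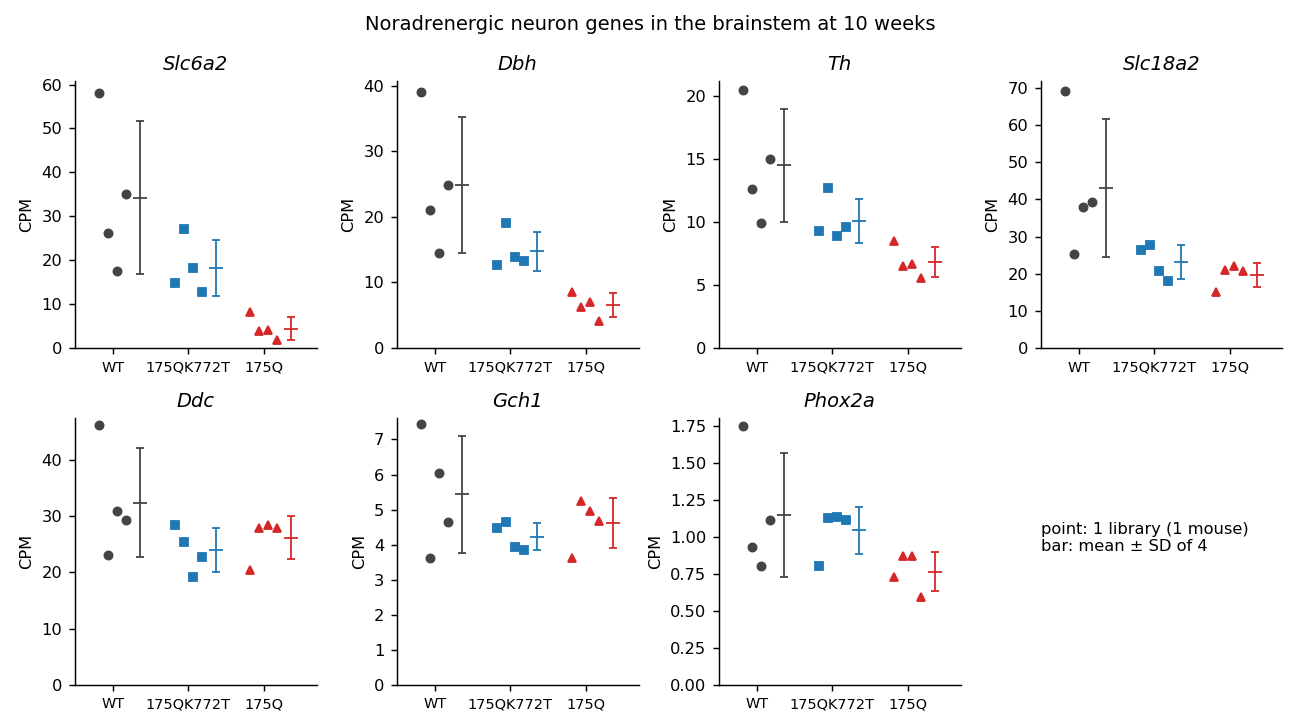
Level of each of the 7 genes in CPM (linear axes from 0) in the 12 brainstem libraries at 10 weeks. Each point is 1 mouse, and bars are mean ± SD of 4. For Slc6a2, Dbh, Th and Slc18a2 all 175Q points lie below all WT points, and 1 WT mouse is the highest of all 12 in every panel.

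WT replicate 1 had the highest value of all 12 libraries for each of the 7 genes, and it also had the highest Tph2, 56.9 CPM. Without that library the 175Q change was -2.71 for Slc6a2 (adjusted p = 0.00432), -1.64 for Dbh (0.00329), -0.88 for Th (0.0213) and -0.81 for Slc18a2 (0.0330). The genes differed in how they went with Tph2. In each genotype the brainstem library with the lowest Tph2 was also that with the lowest Slc18a2, whereas the 175Q libraries with Tph2 of 18.7 to 23.1 CPM had Dbh of 4.19 to 6.96 CPM and a WT library with Tph2 of 9.98 CPM had Dbh of 21.1 CPM. With log2 CPM of Tph2 as a term in the fit, the 175Q changes were -3.06 for Slc6a2 (adjusted p = 0.00534), -1.90 for Dbh (0.00784), -1.06 for Th (0.0327) and -0.78 for Slc18a2 (0.00131). With a term for Ttr in its place they were -3.04, -2.01, -1.15 and -1.19, and all 4 stayed called.

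**Figure D2:**
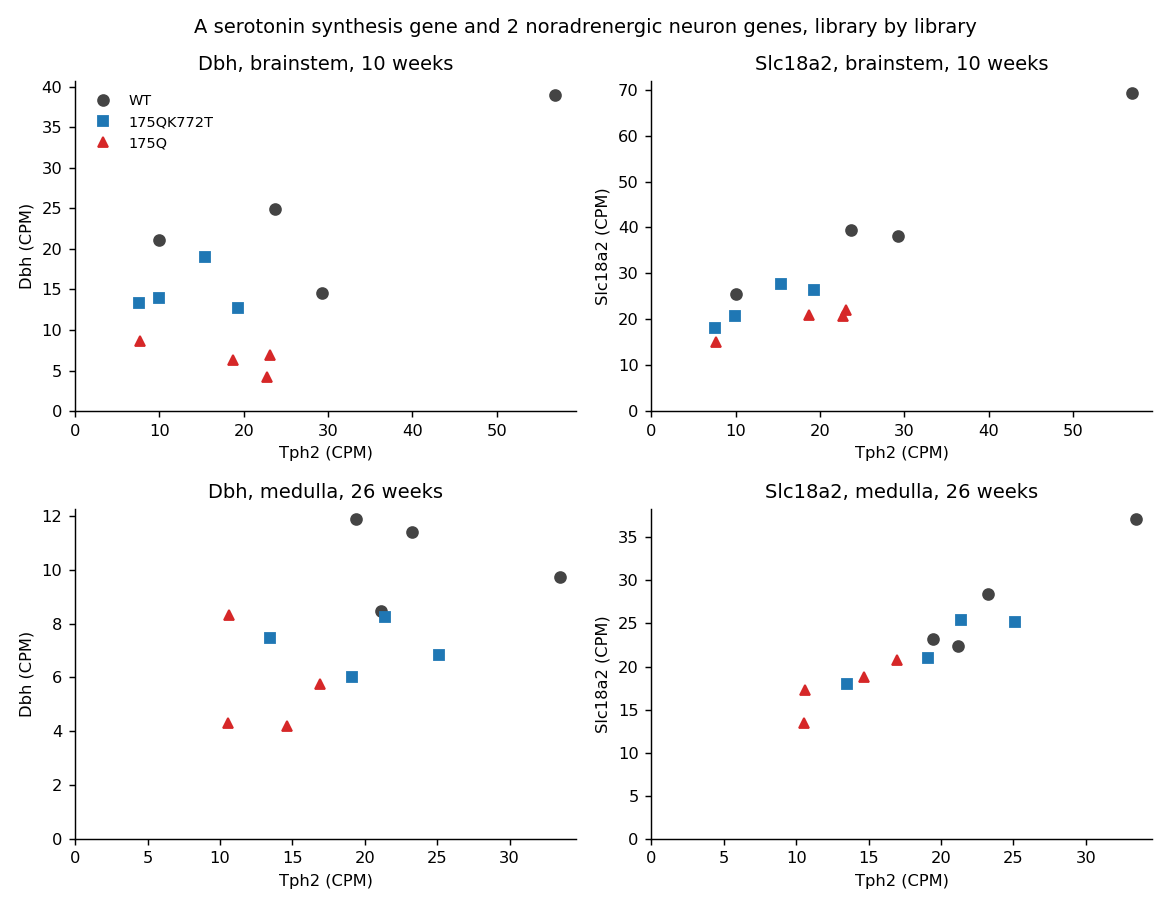
Dbh (left) and Slc18a2 (right) against Tph2, all in CPM, in each library of brainstem at 10 weeks (top) and medulla at 26 weeks (bottom). In the brainstem the libraries of lowest Tph2 in each genotype are those of lowest Slc18a2, while the 175Q points for Dbh, 4.19 to 8.59 CPM, lie below all others.

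In 175QK772T brainstem the values lay between those of the other genotypes for the 3 most affected genes. Slc6a2 was at 14.9, 27, 18.3 and 12.8 CPM, Dbh at 12.7, 19, 13.9 and 13.3 CPM, and Th at 9.29, 12.7, 8.87 and 9.58 CPM. All of these lay above every 175Q value of the same gene and overlapped the lower WT values. Mean levels were 53.3% of the WT mean for Slc6a2, 59.2% for Dbh and 69.6% for Th. Slc18a2 was different, at 26.4, 27.7, 20.7 and 18.2 CPM, which overlapped the 175Q range.

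Against WT, 0 of 7 genes were called in 175QK772T brainstem by edgeR or by DESeq2, where edgeR called 0.0331% of all genes and DESeq2 144 genes. By edgeR 6 of 7 had an unadjusted p below 0.05, a count not made over all genes. The changes were -1.09 ± 0.36 for Slc6a2 (adjusted p = 0.557, 95% interval -1.91 to -0.27), -0.82 ± 0.25 for Dbh (0.546), -0.57 ± 0.19 for Th (0.557) and -0.95 ± 0.22 for Slc18a2 (0.347). All 7 estimates were below 0. Against 175Q, 0 of 7 were called by edgeR, with 0.0568% of all genes called, and 3 had an unadjusted p below 0.05. DESeq2 called 1 member, Slc6a2, and 184 genes in all. The difference was 1.91 ± 0.37 for Slc6a2 (adjusted p = 0.117, 95% interval 1.05 to 2.77), 1.12 ± 0.26 for Dbh (0.266, interval 0.53 to 1.71) and 0.53 ± 0.19 for Th (0.653, interval 0.09 to 0.96). These were also the 3 genes whose 175QK772T and 175Q values did not overlap, a count not made over all genes. Astrocyte markers moved in the same contrast: 2 of 8, Slc1a2 (0.34 ± 0.05, adjusted p = 0.0260) and Gja1 (0.27 ± 0.04, 0.0283), were called higher in 175QK772T, calls lost in 7 and 8 of 8 cases with a library left out (up to 0.202 for both), and 4 of 8 did not overlap; their part in the differences of the members was not tested. For Slc18a2 the difference was 0.13 ± 0.23 (0.959, interval -0.40 to 0.67). With a term for Ttr, Slc6a2 (adjusted p = 0.0198) and Dbh (0.0357) passed the test between the mutants, where 59 genes passed in all.

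**Figure D3:**
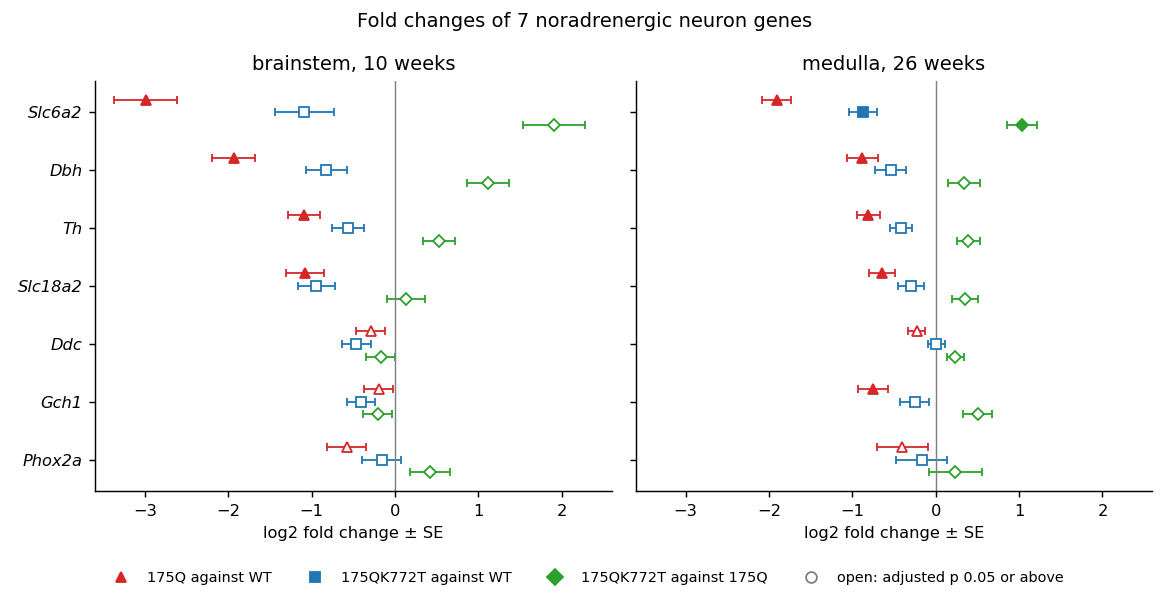
Log2 fold change ± SE of the 7 genes in 3 contrasts, in brainstem at 10 weeks (left) and medulla at 26 weeks (right). Filled symbols passed an adjusted p below 0.05. For Slc6a2 the change against WT is -2.99 in 175Q and -1.09 in 175QK772T brainstem, and -1.91 and -0.87 in medulla.

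In the medulla of 26-week mice, 5 of 7 genes fell in 175Q against WT and none rose, where 10.2% of all 19787 genes tested were called lower. Slc6a2 again fell most, Dbh, Th and Gch1 fell by similar amounts, and Slc18a2 by the least of the 5. The median of the 7 was -0.75, against 0.00 for all genes. Regions and batches differed between the ages, so the sizes of the falls in brainstem and medulla were not compared by a test.

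Slc6a2, low in the medulla, was at 3.05, 3.58, 3.84 and 3.43 CPM in WT and at 0.615, 1.02, 1.18 and 0.895 CPM in 175Q, from 30 counts upward in each library. The groups were far apart, and the 175Q mean was 26.7% of that of WT (-1.91 ± 0.17, adjusted p = 4.1e-06). Dbh was at 8.47, 11.4, 11.9 and 9.74 CPM in WT and at 4.20, 8.31, 5.76 and 4.29 CPM in 175Q (-0.88 ± 0.19, adjusted p = 0.00421). Its highest 175Q library lay just under the lowest WT library. Th was at 10.7, 11.8, 14.9 and 11.7 CPM in WT and at 5.96, 8.69, 6.35 and 6.98 CPM in 175Q, with no overlap (-0.81 ± 0.14, adjusted p = 0.000999). Gch1, which had not passed in the brainstem, was at 5.42, 5.68, 5.58 and 6.93 CPM in WT and at 2.62, 4.03, 4.58 and 2.74 CPM in 175Q (-0.75 ± 0.18, adjusted p = 0.00850). Slc18a2 was at 22.4, 28.4, 23.2 and 37.1 CPM in WT and at 18.8, 17.2, 20.7 and 13.4 CPM in 175Q (-0.64 ± 0.16, adjusted p = 0.00993). All 5 calls held with each of the 8 libraries left out in turn, with adjusted p up to 0.0389.

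Ddc was at 25.7 to 36.9 CPM in WT medulla and 23.5 to 28.1 CPM in 175Q (-0.23 ± 0.10, adjusted p = 0.136, 95% interval -0.46 to 0.01). Phox2a was at 0.381 to 0.830 CPM in WT and 0.328 to 0.619 CPM in 175Q (-0.40 ± 0.31, adjusted p = 0.400), with as few as 12 counts in a library; its 95% interval was -1.11 to 0.31. Strand settings of the 26-week counts are not given in the sources used here, which bears on Phox2a and Slc18a2, whose exons overlap genes of the opposite strand.

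**Figure D4:**
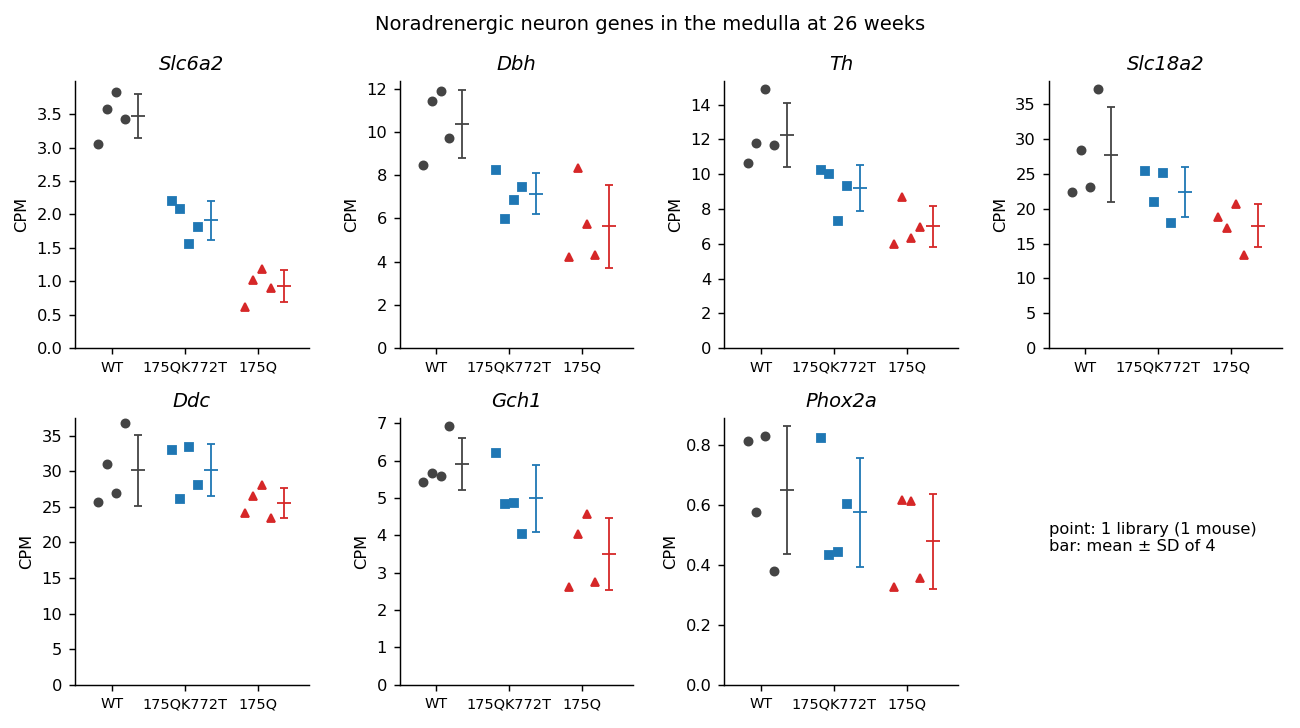
Level of each of the 7 genes in CPM (linear axes from 0) in the 12 medulla libraries at 26 weeks, 1 point per mouse, with mean ± SD of 4. The 3 genotypes are apart for Slc6a2, with 175QK772T (1.55 to 2.2 CPM) between WT and 175Q, while Ddc and Phox2a overlap.

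Serotonin markers moved with these genes in the medulla. Tph2 was at 19.4 to 33.4 CPM in WT, 10.5 to 16.9 CPM in 175Q and 13.5 to 25.1 CPM in 175QK772T, and it fell in 175Q (-0.86 ± 0.20, adjusted p = 0.00817), as did the serotonin transporter Slc6a4 (-1.45 ± 0.28, 0.00219) and the serotonin receptor Htr1a (-0.79 ± 0.06, 1.5e-06). Of the 5 serotonergic markers 3 fell, and their summed level was 75.7 to 98.2 CPM in WT, 42 to 56.4 in 175Q and 57 to 75.9 in 175QK772T. With a term for Tph2 in the fit, the change of Slc18a2 was -0.03 (adjusted p = 0.933) and that of Gch1 -0.36 (0.492). Slc6a2 (-1.89, 0.00149) and Th (-1.10, 0.00794) stayed called, and Dbh was at -1.07 with an adjusted p of 0.0590. Since Tph2 itself differed between the genotypes there, the term and the genotype cannot be told apart in full. With the term 648 genes were called in either direction, whereas the fit without it called 2020 lower alone, so calls were lost among genes in general.

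In 175QK772T medulla Slc6a2 was at 2.2, 2.08, 1.55 and 1.81 CPM, below every WT and above every 175Q library. It was the only member called against WT (-0.87 ± 0.16, adjusted p = 0.0100), where 1.52% of all genes were called lower. It was also the only one called against 175Q (1.03 ± 0.18, adjusted p = 0.00405), where 5.34% of all genes were called higher. Both calls held with each of 8 libraries left out, the highest adjusted p being 0.0436 and 0.0203. Dbh, at 8.25, 6.00, 6.84 and 7.47 CPM, and Th, at 10.2, 10.0, 7.31 and 9.31 CPM, lay below all WT libraries and overlapped 175Q. Their changes against WT were -0.54 ± 0.18 (adjusted p = 0.154) and -0.42 ± 0.14 (0.141), and their differences from 175Q were 0.34 ± 0.19 (0.273, 95% interval -0.09 to 0.77) and 0.39 ± 0.14 (0.0891, interval 0.07 to 0.71). Gch1 was 0.50 ± 0.18 above 175Q (0.0898) and Slc18a2 0.35 ± 0.16 (0.173). With DESeq2, 3 members passed against WT (Slc6a2, Th and Dbh) and 3 against 175Q (Slc6a2, Th and Gch1), where it called 933 and 2639 genes in all. Without 175Q replicate 2 Th (0.0179) and Dbh (0.0354) passed between the mutants, with 1838 genes called in all. Gch1 did so without 175Q replicate 3 (0.0426), with 1420 genes called.

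Other genes known from noradrenergic neurons fell in part with the members. Of 5 such genes, 2 fell in 175Q brainstem: the neuropeptide galanin (Gal, -0.92 ± 0.16, adjusted p = 0.00816) and the nicotinic receptor subunit Chrna6 (-1.66 ± 0.38, 0.0350). The call for Chrna6 was lost in 6 of 8 cases when a library was left out (adjusted p up to 0.103), that of Gal in none. The other 3 were Chrnb3 (-1.36 ± 0.39, 0.0808), the developmental factor Tfap2b (-0.22 ± 0.09, 0.231) and the orexin receptor Hcrtr1 (0.00 ± 0.12, 0.996). In the medulla Gal (-1.46 ± 0.22, 0.000350), Chrna6 (-1.59 ± 0.25, 0.000475) and Chrnb3 (-1.64 ± 0.45, 0.0200) fell in 175Q. The Chrnb3 call was lost in 4 of 8 cases with a library left out (up to 0.0666). Gal was the only one of the 5 called between the mutants there, higher in 175QK772T (0.90 ± 0.22, 0.0208), a call lost in 5 of 8 cases (up to 0.0773). Chrna6 and Chrnb3 were at or below 1.52 CPM in all genotype means. None of the 5 was called by edgeR or DESeq2 in 175QK772T against WT in either region, where 1 in brainstem and 2 in medulla had an unadjusted p below 0.05.

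Partners of catecholamine synthesis were called in part. Of 7 tested in the brainstem, 2 fell in 175Q: Qdpr, the enzyme that recycles tetrahydrobiopterin (-0.27 ± 0.06, adjusted p = 0.0249), and Cyb561, the cytochrome that supplies electrons for Dbh within vesicles (-0.24 ± 0.05, 0.0243), each losing the call in 5 of 8 cases with a library left out (up to 0.0965 and 0.0942). In the medulla Qdpr fell from 411 to 277 CPM (-0.57 ± 0.07, 1.0e-04) and was higher in 175QK772T than in 175Q (0.41 ± 0.07, 0.00476). Cyb561 fell (-0.21 ± 0.07, 0.0422, lost in 5 of 8 cases), and Pts, an earlier enzyme of tetrahydrobiopterin synthesis, rose (0.21 ± 0.05, 0.0115). Pcbd1, also in that cycle, was higher in 175QK772T than in WT (0.43 ± 0.09, 0.0193, lost in 6 of 8 cases). Qdpr is made in most brain cells, so its level does not stand for noradrenergic neurons. Pnmt, which makes adrenaline from noradrenaline, was at 0.191 ± 0.0394 CPM in WT and 0.0710 ± 0.0385 CPM in 175Q brainstem (-1.40 ± 0.47, 0.135), and was too low to be tested in the medulla. Of 2 breakdown enzymes, the monoamine oxidases Maoa and Maob, Maoa fell slightly in 175Q brainstem (-0.16 ± 0.03, 0.0315, lost in 6 of 8 cases). Neither was called by edgeR or by DESeq2 in 175Q medulla, where 0 had an unadjusted p below 0.05, and there Maoa had the highest level, 71.5 ± 1.76 CPM in WT and 68.7 ± 3.14 in 175Q.

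Of 8 adrenergic receptors, which answer to noradrenaline and are made in many cell types, 0 were called by edgeR in 175Q brainstem, while 2 had an unadjusted p below 0.05 and DESeq2 called 2. Adra2a, the receptor at the highest level and the autoreceptor of noradrenergic neurons, was at 34.4 ± 2.41 CPM in WT and 29.3 ± 2.59 CPM in 175Q there (-0.23 ± 0.07, adjusted p = 0.110). In 175Q medulla 4 of 8 fell: Adra2a from 30.9 ± 1.34 to 21.9 ± 0.760 CPM (-0.49 ± 0.06, 2.7e-05), Adra2c (-0.52 ± 0.10, 0.00281), Adra1d (-0.57 ± 0.14, 0.0139) and Adra2b (-2.08 ± 0.48, 0.00792), the last from 0.448 CPM in WT. In 175QK772T medulla Adra2a was at 28.8 ± 1.33 CPM and Adra2c at 6.93 CPM, both above 175Q (0.40 ± 0.06, 0.00139, and 0.53 ± 0.10, 0.00684). Adra1b and Adrb1 were not called in either region.

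Markers of other cells in the same pieces gave the following. In 175Q brainstem 1 of 5 serotonergic markers fell (Htr1a, -0.35 ± 0.09, adjusted p = 0.0481, lost in 7 of 8 cases), and Tph2 was at -0.57 ± 0.45 (0.559). None of 5 cholinergic markers passed by edgeR (3 had an unadjusted p below 0.05 and DESeq2 called 2); the highest of them, Slc5a7, was at 82.0 ± 20.4 CPM in WT and 59.9 ± 3.12 in 175Q. Of 8 astrocyte markers 3 fell, Slc1a2 by the most (-0.56 ± 0.05, 7.0e-05), and their summed level was 4940 to 5539 CPM in WT and 3946 to 4079 CPM in 175Q. Choroid plexus markers summed to 64.4 to 5264 CPM in WT and 64.5 to 782 CPM in 175Q, with 0 of 7 called by edgeR or DESeq2 and 5 with an unadjusted p below 0.05. Cerebellar markers reached 190 CPM in 175Q replicate 1 and at most 111 CPM in the other 11 libraries, and caudal Hox genes summed to 126 to 181 CPM in WT and 160 to 190 CPM in 175Q. The dopaminergic transporter Slc6a3 was at 0.263 ± 0.107 CPM and Pitx3 at 0.0796 ± 0.0617 CPM in WT brainstem. Both, of 5 listed dopaminergic markers, were thus near 0, and the levels of the others are not given here. In the medulla 7 of 8 astrocyte markers fell in 175Q, with sums of 5454 to 5686 CPM in WT and 3182 to 3528 CPM in 175Q. Those of 175QK772T summed to 4092 to 4349 CPM. Of the 8, 3 were called lower than in WT and 6 higher than in 175Q, among them Slc1a2 (-0.68 ± 0.06, 3.9e-05, and 0.41 ± 0.06, 0.00241). Between the mutants the calls of Aldoc, Aqp4 and Aldh1l1 were lost in 6, 2 and 2 of 8 cases with a library left out (up to 0.0881). Between the mutants 5 of 10 caudal Hox genes, which are active in the caudal hindbrain and spinal cord, were also called higher in 175QK772T, Hoxb8 by the most (0.69 ± 0.14, 0.00986), and all 10 had an unadjusted p below 0.05. The Hoxc5 call was lost in 6 of 8 cases with a library left out (up to 0.149). Sums of the Hox genes were 222 to 310 CPM in WT, 201 to 242 CPM in 175Q and 270 to 334 CPM in 175QK772T. Also higher in 175QK772T than in 175Q were 2 of 5 serotonergic markers, 1 of 6 microglia markers (C1qa, 0.40 ± 0.07, 0.00475) and 1 of 6 cerebellar markers (Calb1, 0.56 ± 0.12, 0.0132). Of the 2 serotonergic calls, that of Slc6a4 was lost in 5 of 8 cases (up to 0.0957). In 175Q against WT, Calb1 (-0.89 ± 0.12, 0.000206), C1qa (-0.32 ± 0.07, 0.00702) and Csf1r (-0.21 ± 0.06, 0.0262) fell, as did Hoxb4 (-0.28 ± 0.09, 0.0413) and Hoxb5 (-0.29 ± 0.09, 0.0380), the last 3 lost in 5, 6 and 6 of 8 cases. In the medulla choroid plexus markers summed to 1055 to 3798 CPM in WT and 68.2 to 2799 CPM in 175Q. Of 6 genes of neurons in general 2 fell in 175Q brainstem and 3 in 175Q medulla, with medians of -0.06 and -0.14. Of all genes 1.87% and 10.2% were called lower there. In brainstem the calls of Elavl4 and Snap25 were lost in 1 and 5 of 8 cases with a library left out (up to 0.0507 and 0.0854). In medulla Elavl4 and Rbfox3 kept theirs, while that of Syt1 was lost in 8 of 8 (up to 0.134). The part of these cells in the changes of the members was not tested beyond the terms for Tph2 and Ttr.

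Per kilobase of exon, Dbh had the highest mean of the members in WT brainstem, 9.24 ± 3.83 CPM per kb (SD, n = 4), followed by Slc18a2 at 8.23 ± 3.55, Ddc at 7.25 ± 2.18, Th at 6.14 ± 1.89 and Slc6a2 at 5.44 ± 2.76. Neighbours in this order did not differ beyond their spread. Gch1 at 0.869 ± 0.266 and Phox2a at 0.564 ± 0.206 lay below all 5. In 175Q brainstem Ddc had the highest mean, 5.86 ± 0.853 CPM per kb, and Dbh was at 2.42 ± 0.678 and Slc6a2 at 0.708 ± 0.425. In WT medulla the means were 6.75 ± 1.13 CPM per kb for Ddc, 5.31 ± 1.30 for Slc18a2, 5.19 ± 0.776 for Th and 3.86 ± 0.582 for Dbh, and Slc6a2 was at 0.552 ± 0.0521.

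Library by library, with genotype means removed, the members did not all vary together. Over the 12 brainstem libraries and 16154 genes, those most like Dbh in log2 CPM were Stox1 (Pearson r = 0.969), Th (0.967), Fibcd1 (0.962), Slc6a2 (0.954) and Mrpl28 (0.952), so 2 of the 5 were members. Phox2a, at 0.809, came at rank 209, and Slc18a2 stood at 0.396, Ddc at 0.243 and Gch1 at 0.161. In the medulla the genes most like Dbh were Polr2d (0.959), Btbd16 (0.944), Paqr6 (0.912), Myl9 (0.905) and Zfp1 (0.901), none of them a member. Th (0.635) and Slc6a2 (0.589) came at ranks 602 and 877 of 16296 genes. These correlations describe 12 libraries that share tissue and depth, and carry no test.

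Across regions of WT mice at 10 weeks, each of the 7 was highest in the brainstem, with no overlap with the next region. CPM were scaled within each set, so levels of different regions compare only roughly. Dbh averaged 24.9 ± 10.3 CPM in brainstem, 0.835 ± 1.17 in cerebellum, 0.618 ± 0.187 in hippocampus, 0.274 ± 0.124 in cortex and 0.0715 ± 0.0489 in striatum. For Dbh, cerebellum overlapped both hippocampus and cortex, and cortex overlapped striatum. Slc6a2 was at 34.2 ± 17.4 CPM in brainstem, 1.16 ± 1.48 in cerebellum and at most 0.104 in the forebrain regions, and Phox2a at 1.15 ± 0.419 CPM in brainstem and at most 0.0414 elsewhere. Slc18a2 was at 43 ± 18.5 CPM in brainstem, 2.01 ± 0.320 in hippocampus, 1.21 ± 0.357 in striatum, 1.09 ± 0.908 in cerebellum and 0.0948 ± 0.106 in cortex. Th and Ddc kept sizeable levels elsewhere: Th was at 14.5 ± 4.47 CPM in brainstem, 6.87 ± 1.24 in striatum, 6.69 ± 2.6 in cerebellum, 1.41 ± 0.360 in cortex and 0.797 ± 0.196 in hippocampus, and striatum and cerebellum overlapped. Ddc was at 32.4 ± 9.74 CPM in brainstem and 11.4 ± 1.53 in striatum, and at 4.58 to 5.85 in the other 3 regions, which overlapped in turn. Gch1 was at 5.43 ± 1.66 CPM in brainstem and at 1.22 to 1.54 in the other 4.

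At 26 weeks the mean was highest in the medulla for each of the 7. Ddc and Phox2a there overlapped the cortex only with the library labelled cortex WT replicate 1, and Th there (12.3 ± 1.83 CPM) overlapped Th in cerebellum (11.5 ± 2.07), which overlapped striatum (8.01 ± 1.37). Dbh in the medulla was at 10.4 ± 1.57 CPM. In the cortex it was at 2.29 ± 3.93 with all 4 WT libraries and at 0.322 ± 0.109 (n = 3) without replicate 1, and Slc18a2 moved from 5.47 ± 10.3 to 0.329 ± 0.178 in the same way.

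Cerebellar libraries held some signal of Dbh and Slc6a2 that differed strongly between mice. At 10 weeks WT replicate 3 had 2.58 CPM of Dbh (209 counts) and 3.39 CPM of Slc6a2, where the other 3 WT cerebella had at most 0.277 and 0.487. The brainstem of that mouse had the lowest Dbh, Slc6a2 and Th of the 4 WT mice (14.5, 17.6 and 9.93 CPM), and its cerebellum had the highest Th, 10.2 CPM. At 26 weeks WT replicate 4 had the highest cerebellar Dbh and Slc6a2 (1.53 and 2.32 CPM), and its medulla, with Dbh of 9.74 CPM, lay within the WT range. Whether tissue from the border of the 2 regions takes part was not tested.

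Outside brainstem and medulla, 117 of 168 combinations of member, region, age and contrast could be tested, and 18 were called, 13 lower and 5 higher. Of 39 tested in each contrast, 11 were called in 175Q against WT, 6 in 175QK772T against WT and 1 between the mutants. The share of all genes called in either direction, in cerebellum, cortex, hippocampus and striatum in that order, was 11.4%, 38.2%, 19.6% and 32.7% at 10 weeks and 3.01%, 31.6%, 40.8% and 45.4% at 26 weeks for 175Q against WT. For 175QK772T against WT it was 4.04%, 25.9%, 10.8% and 19%, and then 0.298%, 8.83%, 19% and 23.4%. Between the mutants it was 1.19%, 1.05%, 0.0332% and 0.6%, and then 0.0992%, 3.46%, 15.7% and 13.6%. Set beside these shares, the members as a group were called about as often as genes in general. Phox2a was tested in none of these 8 sets and Slc6a2 in 1. Th gave 10 of the 18 calls: it fell in 175Q in 6 of the 8 sets and its estimate was below 0 in all 8. Different regions of the same mice are not independent. With the 3 mice of a number left out of each set at a time, 5 to 17 calls were made in these sets, the fewest without replicate 2.

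In the cerebellum at 10 weeks Th was at 6.28, 3.96, 10.2 and 6.29 CPM in WT, 3.16, 3.00, 3.69 and 2.83 CPM in 175Q and 6.61, 6.91, 5.92 and 6.17 CPM in 175QK772T. The 175Q values lay below all others, and 175QK772T lay within the WT range. Th fell in 175Q against WT (-1.05 ± 0.19, adjusted p = 0.00230, where 11.4% of all genes were called) and was higher in 175QK772T than in 175Q (0.95 ± 0.20, 0.0295, with 1.19% called). Without WT replicate 3, the library with the highest Dbh and Slc6a2, the former was -0.81 (0.00278) and the latter 1.00 (0.00167). The latter call was lost without replicate 1, 2 or 4 (up to 0.456). At 26 weeks cerebellar Th was at 11.7, 8.58, 13.2 and 12.7 CPM in WT, 3.36, 2.56, 2.82 and 5.56 CPM in 175Q and 9.76, 9.16, 5.73 and 4.98 CPM in 175QK772T. It fell in 175Q (-1.71 ± 0.23, adjusted p = 0.00214, 3.01% called), a call lost without replicate 2 (0.0594). The 175QK772T values spread over the gap, 1.03 ± 0.22 above 175Q (0.143), or 1.16 (0.0172) with 3 libraries left out, a choice made after seeing the data: WT replicate 4, with the highest Dbh and Slc6a2, and 175Q replicate 4 and 175QK772T replicate 2, in which mitochondrial genes held 13.5% and 11.5% of counts, against 3.89% to 5.01% in the other 10 libraries of the set. Th is also transcribed by Purkinje cells, so cerebellar Th does not stand for noradrenergic neurons.

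In the forebrain Th fell in 175Q cortex at 10 weeks (-0.73 ± 0.21, adjusted p = 0.0116, 38.2% of all genes called; lost without replicate 2, 0.0783) and at 26 weeks. The latter was -2.05 ± 0.37 (0.00173, 31.6% called) with the library labelled cortex WT replicate 1 and -1.51 (7.5e-05) without it. For 175QK772T cortex at 26 weeks the same values were -1.43 ± 0.36 (0.0318, 8.83% called; lost without replicate 2 or 4, up to 0.215) and -0.90 (0.0111). Dbh in 175Q cortex at 26 weeks, -3.11 ± 1.07 (0.0456) with that library, was -0.94 (0.141) without it, and its call was lost in 4 of 4 cases with a replicate number left out (up to 0.190). Hippocampal Th at 10 weeks was low, 0.665 to 1.08 CPM in WT against 0.242 to 0.462 in 175Q and 0.292 to 0.557 in 175QK772T, and fell in both mutants (-1.08 ± 0.27, 0.0127, 19.6% called, and -0.98 ± 0.27, 0.0336, 10.8% called). Those calls were lost in 2 and 3 of 4 cases with a replicate number left out (up to 0.101 and 0.262). Striatal Th at 26 weeks was at 10.0, 7.50, 7.11 and 7.37 CPM in WT, 4.15, 4.5, 4.98 and 3.91 CPM in 175Q and 4.84, 3.04, 3.07 and 6.03 CPM in 175QK772T. It fell by like amounts in 175Q (-0.87 ± 0.22, 0.00557, 45.4% called) and 175QK772T (-0.90 ± 0.22, 0.00938, 23.4% called), and the mutants differed by -0.03 ± 0.22 (0.940). The former call was lost without replicate 1 (0.0719) and the latter without replicate 2 (0.103). At 10 weeks the striatal changes were -0.55 ± 0.21 (0.0643) and -0.57 ± 0.21 (0.0808).

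Slc18a2 went the other way in the hippocampus at 10 weeks. It was at 2.37, 2.11, 1.61 and 1.94 CPM in WT, 2.74, 3.16, 2.44 and 4.54 CPM in 175Q and 3.06, 3.77, 3.10 and 3.39 CPM in 175QK772T. Every mutant value lay above every WT value (0.68 ± 0.18, adjusted p = 0.0198, and 0.76 ± 0.19, 0.0199). Those calls were lost in 2 and 3 of 4 cases with a replicate number left out (up to 0.150 and 0.109). At 26 weeks hippocampal Slc18a2 was at 0.09 ± 0.14 (0.648) and -0.28 ± 0.14 (0.213). In 175QK772T cerebellum at 10 weeks Slc18a2 was lower than in WT (-2.29 ± 0.47, 0.0114, 4.04% called), from 0.438 to 2.40 CPM in WT to 0.0894 to 0.291 CPM. Without WT replicate 3 it was -1.59 (0.0447), and with the 3 mice of a number left out at a time the call was lost in 2 of 4 cases (up to 0.0952).

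Ddc rose in 175Q striatum at both ages. At 10 weeks it was at 13.4, 11.4, 9.65 and 11.3 CPM in WT and 17.6, 16.7, 16.3 and 15.7 CPM in 175Q (0.54 ± 0.12, adjusted p = 0.00435, 32.7% called; lost without replicate 2, 0.0558), and at 26 weeks 11.1, 11.5, 8.05 and 11.8 CPM against 14.3, 18.7, 16.2 and 11.5 CPM (0.52 ± 0.14, 0.0111; lost without replicate 2 or 3, up to 0.0916). The former groups did not overlap and the latter did. In 26-week cortex Ddc was lower in 175QK772T than in 175Q (-0.40, 0.00692) without the library labelled cortex WT replicate 1, and at -0.42 ± 0.39 (0.597) with it. In 175QK772T striatum Ddc did not pass (0.25 ± 0.12, 0.185, and 0.15 ± 0.14, 0.485). The last 2 calls were in the hippocampus at 26 weeks: Gch1 fell in 175Q (-0.94 ± 0.20, 0.00200, 40.8% called) from 1.59 to 2.12 CPM in WT to 0.692 to 1.39 CPM, and Dbh was lower in 175QK772T than in WT (-1.31 ± 0.35, 0.0160, 19% called), at 0.153 to 0.257 against 0.366 to 0.672 CPM. The Dbh call was lost in 3 of 4 cases with a replicate number left out (up to 0.119).

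**Figure D5:**
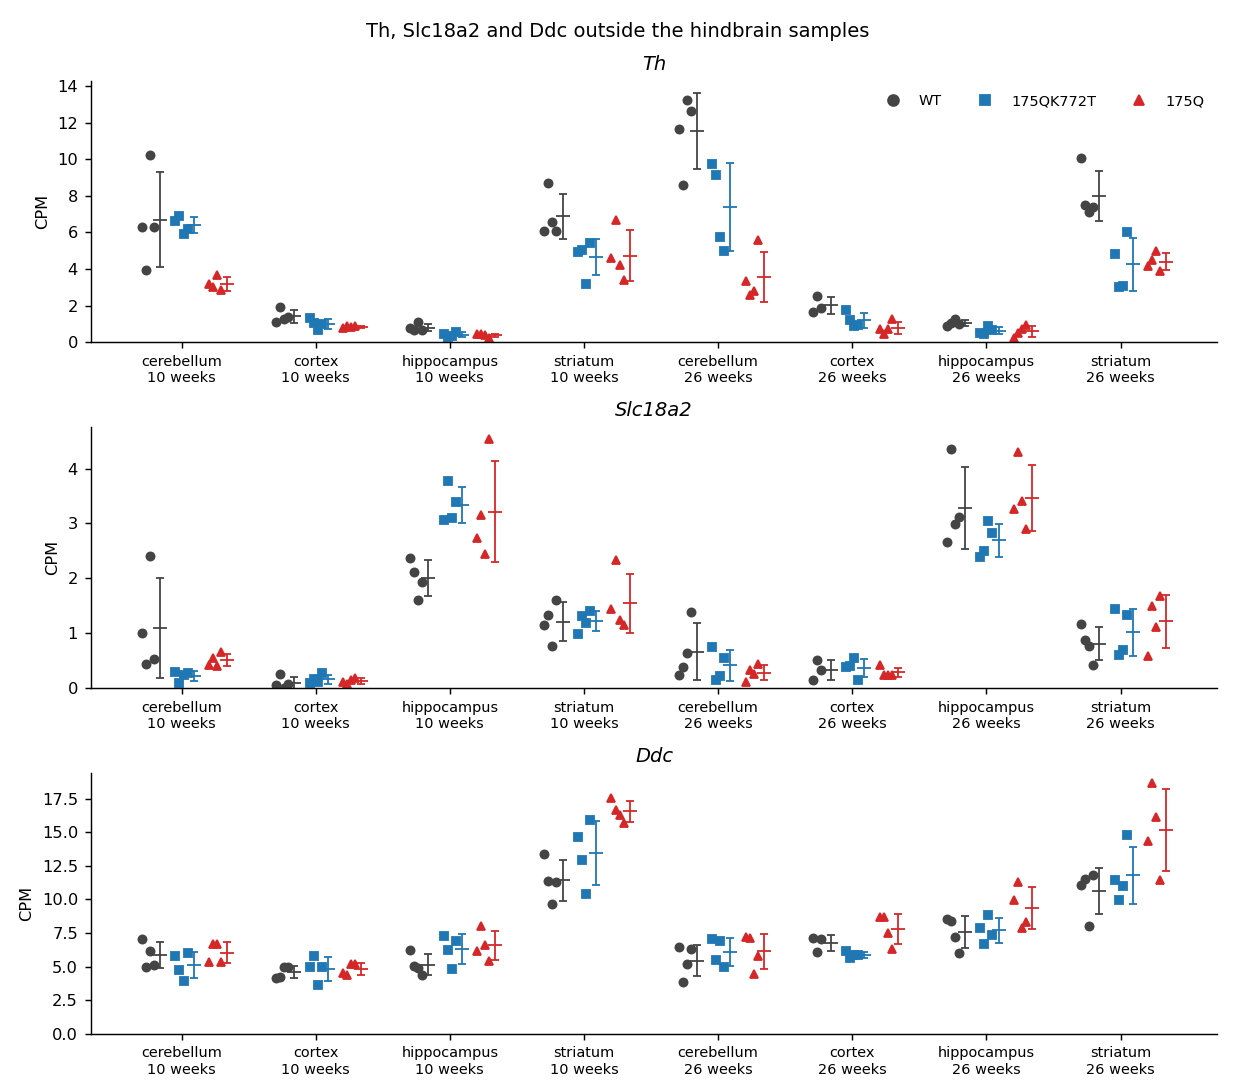
Th, Slc18a2 and Ddc in CPM (linear axes from 0) in each library of the 8 other sets of region and age, with mean ± SD; the library labelled cortex WT replicate 1 at 26 weeks is not drawn. Th is lower in 175Q cerebellum than in both other genotypes at 10 weeks, Slc18a2 is higher in both mutants in the 10-week hippocampus, and Ddc is higher in 175Q striatum.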

How the data were processed

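Per the labels' protocols, poly(A) RNA was sequenced as 150-nucleotide pairs on a NovaSeq, the ages in separate batches. Per the submitters' processing notes, bcl2fastq 2.20.0, Trimmomatic 0.33, HISAT2 2.1.0 and featureCounts of Subread 1.6.2 were used with GRCm38. The authors deposited unnormalized gene counts. Ensembl 97 models, stranded counting and a mapping quality of 10 or more stand behind the 10-week table, per the file headers, and such settings are not given in the sources used here for 26 weeks. Each set of 12 libraries was fitted alone in R 4.3.3 with edgeR 4.0.16 (filterByExpr, TMM, quasi-likelihood test, genotype and sex). Members and gene lists were chosen with earlier results of these data known. All members are named; called list genes of brainstem and medulla, the gene of highest level of an uncalled list and the 5 genes most like Dbh could be named, marker lists being given mostly by counts; Slc6a3, Pitx3, Pnmt and other uncalled genes were added after their values were seen, and 3 genes were left out of the lists and are not reported here. Alternatives were DESeq2 1.42.0, RLE scaling, all genes kept, sex left out of the fit, replicate number as a block, terms for Ttr and Tph2, libraries left out in turn and, chosen after seeing the data, 5 doubted libraries left out. Single libraries were left out in brainstem and medulla, and all libraries of a replicate number at a time in the other sets. On simulated data the test recovered 36, 64, 74 and 98% of genes changed 1.25, 1.5, 2 and 4-fold in brainstem and 28, 56, 74 and 92% in medulla. Duplicates were looked for in 180 pairs of libraries, each pair from the same region, age and genotype, and none was found. Pairs from different groups were not checked for this. Only spread between mice of a batch is measured.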

Additional observations from a re-analysis of the deposited data

Results flagged for a closer look

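Of 172 groups of 4 libraries in which a member reached 10 counts, 17 held a library far from the other 3 (Dixon's ratio at the 95% level), where chance gives about 5 in 100; 7 of the 17 came from 1 library, and without that group 10 of 165 remained. In the library labelled cortex WT replicate 1 at 26 weeks all 7 members stood above the other 3 WT cortices: Th 7.91 CPM, Dbh 8.18, Slc6a2 3.02, Slc18a2 20.9, Ddc 26.1, Gch1 4.30 and Phox2a 0.855, the last against 0 in the others. In the cerebellum at 10 weeks WT replicate 3 had Dbh of 2.58 CPM and Slc6a2 of 3.39. In the brainstem Ddc of 175Q replicate 1 was low at 20.4 CPM (others 27.8 to 28.4) and Phox2a of 175QK772T replicate 1 was low at 0.805 CPM (others 1.11 to 1.13). In the medulla Gch1 of WT replicate 4 was high at 6.93 CPM. In the other regions the values were Slc6a2 of 0.137 CPM in 10-week cortex of 175QK772T replicate 4, Slc6a2 of 0.157 CPM in 10-week striatum of 175Q replicate 3, Gch1 of 1.51 CPM in 10-week striatum of 175Q replicate 1, Slc18a2 of 0.415 CPM in 26-week cortex of 175Q replicate 1 and Th of 10.0 CPM in 26-week striatum of WT replicate 1.

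Slc18a2 moved in opposite directions in different regions of the same mice at 10 weeks. In 175Q against WT it was at 0.68 on the log2 scale in the hippocampus and -1.08 in the brainstem, and in 175QK772T against WT at 0.76 in the hippocampus and -2.29 in the cerebellum. All 4 mutant libraries lay above all WT libraries in the hippocampus and below them in the other region. The difference between regions was not tested.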

How the results depend on the processing

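The number of called members changed as follows. Without a low-count filter it was 5 in place of 0 for 175QK772T against WT and 3 in place of 0 between the mutants in brainstem. In medulla it was 4 and 5 in place of 1 and 1. In brainstem 372 and 439 genes were then called in all in these 2 contrasts, in place of 7 and 12, and in medulla 1351 and 2680. For 175Q against WT the unfiltered fit gave 5 and 6 members in place of 4 and 5 in brainstem and medulla, where 1744 and 4352 genes were called. In the other 8 sets it gave 46 in place of 18. DESeq2 gave 1 member between the mutants in brainstem, and 3 against WT and 3 between the mutants in medulla for 175QK772T. It called 184, 933 and 2639 genes in all there. DESeq2 also gave 26 in the other 8 sets. A term for Ttr gave 2 between the mutants in brainstem and 6 in place of 5 in 175Q medulla, where Ddc passed (0.0458), and a term for Tph2 gave 2 in place of 5 for 175Q against WT in medulla. With a library left out in turn, 1 to 3 members were called between the mutants in medulla (3 without 175Q replicate 2). With the 3 mice of a number left out of each set at a time, 5 to 17 were called in the other sets (11 without replicate 3). The causes were not tested. The replicate block gave 3 in place of 4 in 175Q brainstem, where Slc18a2 had an adjusted p of 0.0689, and 18 in the other sets, where the calls of Th in 10-week hippocampus of 175QK772T (0.105) and of Dbh in 26-week cortex of 175Q (0.0528) were lost and those of Th in 175Q were gained in 10-week striatum (0.0376) and 26-week hippocampus (0.0193). Mice with the same number are different mice and did not pair in brainstem or medulla. Their deviations correlated at -0.16 to 0.25 and -0.21 to 0.19 there, and 3 and 1 of 12 libraries were closest to their own number. In the other sets that number ran from 0 of 12 in 10-week striatum to 6 of 12 in 10-week cerebellum. The correlations there ran from -0.56 in 26-week cerebellum to 0.40 in 26-week hippocampus. Leaving out 5 doubted libraries, chosen after seeing the data, gave 19 calls in the other sets, and leaving out the library labelled cortex WT replicate 1 gave 18.

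Signs turned only for changes that did not pass in the fit as reported. With Tph2 these were Phox2a for 175QK772T against WT (0.033) and Ddc between the mutants (0.032) in brainstem, and Ddc for 175Q against WT (0.082) and Slc18a2 between the mutants (-0.053) in medulla; with Ttr, Ddc for 175QK772T against WT in medulla (-0.15). With a library left out in turn, Phox2a ran from -0.35 to 0.18 (without WT replicate 1) for 175QK772T against WT in brainstem and from -0.33 to 0.023 (without 175QK772T replicate 2) in medulla, Slc18a2 between the mutants in brainstem from -0.083 (without 175Q replicate 1) to 0.24, and Ddc for 175QK772T against WT in medulla from -0.069 to 0.10, below 0 in 4 of 8 cases. In 26-week cortex all mice of a replicate number were left out at a time. Ddc in 175Q then ran from -0.75 to 0.22 (without replicate 1) and Slc18a2 in 175QK772T from -4.26 to 0.17 (without replicate 1). They were 0.23 and 0.14 without the doubted library alone. The causes were not tested. Phox2a had as few as 12 counts in a medulla library.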
